A study of Mus musculus with 4 samples.

Results

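The mitochondrial carriers of the SLC25 family were examined in HT-22, a mouse cell line of hippocampal origin that was immortalized. The members were all gene symbols beginning with Slc25a, together with Ucp2, an uncoupling protein of the same family, and without Slc25a1, Slc25a11 and Slc25a20. This rule gave 46 symbols in GENCODE release M21, of which 36 had at least 1 transcript matched in the table and 10 were not analysed here (Slc25a2, Slc25a18, Slc25a21, Slc25a23, Slc25a31, Slc25a41, Slc25a48, Slc25a53, Slc25a54 and the pseudogene Slc25a5-ps). The 36 members were 36 of 11502 gene symbols in the table, and 33 of them averaged 1 FPKM or more and were compared, among 10604 such genes. The rule uses gene names and no measured value, but it was set with earlier results of these data known.

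There were 4 groups with 1 library each. Ctrl cells carried a negative control lentivirus and PGC-1α cells a lentivirus that overexpresses PGC-1α, and both were selected with puromycin. The Ctrl+OGD and PGC-1α+OGD groups were such cells exposed for 2 h to oxygen and glucose deprivation (OGD) in medium without serum and glucose, followed by 24 h in normal medium. The genotype label of the control cells is wild type. The methods describe no cloning step, and the cell type label is hippocampal neurons. Of 8 neuronal markers, Rbfox3, Map2, Tubb3, Snap25, Nefl and Syt1 had no value in the table, and the summed level of the other 2, Eno2 and Syp, lay between 0.668 and 3.70 FPKM. Of 4 markers each, 2 of astrocytes (summed level 2.45 to 5.62 FPKM), 2 of microglia (0.740 to 2.66 FPKM) and 1 of oligodendrocytes (3.26 to 4.76 FPKM) had values. The defining markers of a neuron thus had no value or a low one. Values were taken as FPKM, fragments scaled to transcript length and to the number of mapped fragments, and the transcripts of each gene were summed. Unless libraries are named, 4 values in a row stand first for the libraries without OGD, Ctrl then PGC-1α, and then for those with OGD in the same order. The column totals lay between 331892 FPKM in Ctrl and 353381 FPKM in Ctrl+OGD, and the read depth behind them is unknown. With 1 library per group, the differences below have no replicate error and were not tested, and in bulk RNA fewer expressing cells and less RNA per cell cannot be told apart.

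SLC25 proteins are carriers of the inner mitochondrial membrane, each built from a repeated pair of membrane helices, that exchange nucleotides, phosphate, amino acids, cofactors and metal ions between cytosol and matrix. The ADP/ATP carriers and the phosphate carrier supply ATP synthase with its substrates and export the ATP made. The aspartate/glutamate carriers form part of the malate-aspartate shuttle that moves reducing equivalents of NADH into mitochondria, and uncoupling proteins are members of the same family. PGC-1α is a transcriptional coactivator that drives mitochondrial biogenesis. Ppargc1a, its gene, had 0.900, 35.1, 0.103 and 8.41 FPKM, so both overexpressing libraries were above both control libraries. The log2 fold changes, taken after adding 1 FPKM to each value, were 4.25 without OGD and 3.09 with OGD. The plain FPKM ratios to control had the opposite order, 38.9 without OGD and 81.3 with OGD. From PGC-1α to PGC-1α+OGD the log2 fold change of Ppargc1a was -1.94.

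Transcript variants of the same carrier matter for several results below, and the coding stretches that separate them are shown first, as read from the GENCODE M21 transcripts on GRCm38. The mitochondrial phosphate carrier Slc25a3 has a pair of alternative exons, of which 3A is known from heart and skeletal muscle and 3B from most tissues. Capitals mark the bases that differ when the 2 exons are aligned (77 of 125 aligned positions were identical, or 61.6%). Exon 3A, 125 bases, lies at chr10:91122207-91122331 and exon 3B, 122 bases, at chr10:91121922-91122043, both on the minus strand and wholly coding.
Slc25a3 exon 3A: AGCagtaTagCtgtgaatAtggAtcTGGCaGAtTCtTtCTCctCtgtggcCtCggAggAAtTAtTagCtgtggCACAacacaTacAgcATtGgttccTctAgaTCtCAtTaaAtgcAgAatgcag
Slc25a3 exon 3B: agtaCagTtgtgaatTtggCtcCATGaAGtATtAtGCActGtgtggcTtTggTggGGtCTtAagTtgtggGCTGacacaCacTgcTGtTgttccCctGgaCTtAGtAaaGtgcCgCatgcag
Further stretches are present in some transcripts of a carrier and absent from others. They are a 36-base coding exon of the ATP-Mg/phosphate carrier Slc25a25 (chr2:32420656-32420691, minus strand) and the 24 bases at the 5′ end of a coding exon of the glutathione carrier Slc25a39 (chr11:102405803-102405826, minus strand). No bases are in capitals in these 2, since the whole stretch is what differs.
Slc25a25 exon: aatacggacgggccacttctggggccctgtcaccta
Slc25a39 exon part: catcctccgctctacagtccccag

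The carriers spanned a wide range of levels. Slc25a4 was the most abundant member with a mean of 190 FPKM, followed by Slc25a3 (146 FPKM), Slc25a5 (146 FPKM) and Slc25a39 (115 FPKM), and these 4 genes held between 62.8% and 68.4% of the summed FPKM of all 36 members. The next member, Slc25a24, had a mean of 38.4 FPKM. At the low end, Slc25a29, Slc25a14 and Slc25a47 had means between 0.439 and 0.753 FPKM and were not compared. The summed FPKM of the members was 758, 922, 904 and 1004, which is 0.228%, 0.273%, 0.256% and 0.289% of the total. The sum was thus lowest in Ctrl. For 12 of the 33 compared members (36.4%) the highest and the lowest library were at least 1.5-fold apart, against 28.7% of all genes.

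**Figure D1:**
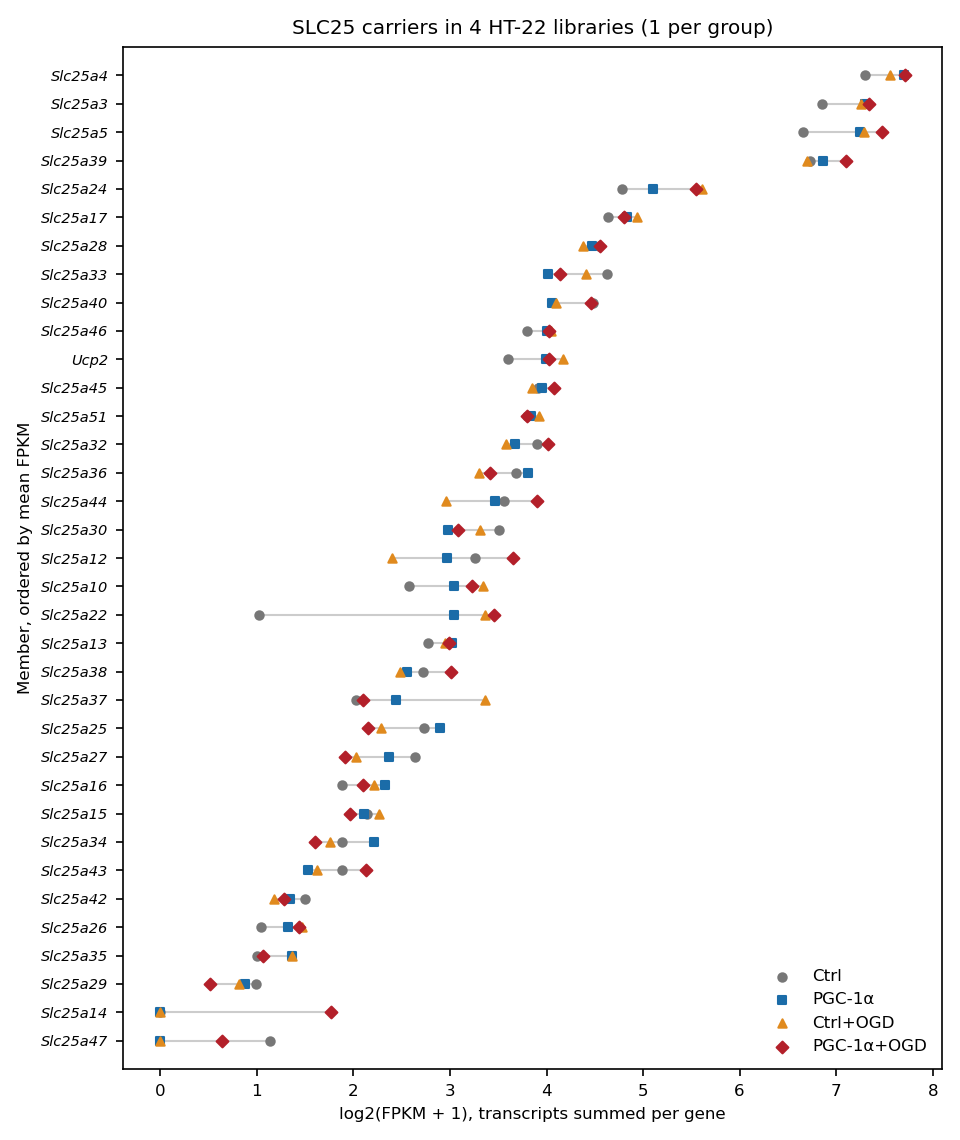
Level of 35 of the 36 members in the 4 libraries, as log2(FPKM + 1) with the transcripts of a gene summed. Each point is 1 library and the grey line joins the lowest and the highest. Slc25a4, Slc25a3, Slc25a5 and Slc25a39 sit apart at the top, and for Slc25a22 the Ctrl library (1.02 FPKM) lies far to the left of the other 3.

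A fold change is a difference of log2(FPKM + 1), and a gene is called higher or lower at 1.5-fold or more, a difference of 0.58 on the log2 scale. In PGC-1α vs Ctrl, 2 members were higher (Slc25a22 and Slc25a5), against 4.91% of all compared genes, and 1 was lower (Slc25a33), against 5.63%. In PGC-1α+OGD vs Ctrl+OGD, 2 were higher (Slc25a12 and Slc25a44), against 3.08% of all genes, and 1 was lower (Slc25a37), against 3.82%. As shares of 33, these counts are 6.06% higher and 3.03% lower in each comparison, near the share among all genes. These comparisons share no library.

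Most carriers differed by less than 1.5-fold, and their differences leaned upward without OGD. Among the 33 members the log2 fold change had a median of 0.16 in PGC-1α vs Ctrl, where that of all genes was -0.03, and 21 members (63.6%) were above 0, against 45.8% of all genes. With the most abundant transcript of each gene in place of the sum, this median was -0.0075. In PGC-1α+OGD vs Ctrl+OGD the median was 0.04 for the members and -0.01 for all genes, with 17 members above 0 (51.5%), against 47.1%.

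OGD in control cells gave the most calls. In Ctrl+OGD vs Ctrl, 5 members were higher (Slc25a5, Slc25a10, Slc25a22, Slc25a24 and Slc25a37), which is 15.2% of 33 against 6.2% of all genes, and 3 were lower (Slc25a12, Slc25a27 and Slc25a44), 9.09% against 7.71%, while 13.9% of all genes were past 1.5-fold in either direction. The median was 0.02 for the members and -0.02 for all genes, with 17 members (51.5%) above 0 against 48.0% of all genes, so the calls went both ways. In PGC-1α+OGD vs PGC-1α, 2 members were higher (Slc25a12 and Slc25a43), against 3.82% of all genes, and 2 were lower (Slc25a25 and Slc25a34), against 5.22%, and in either direction 9.03% of all genes were past 1.5-fold. The median was 0.05 beside 0.00 for all genes, and 20 members (60.6%) were above 0, against 50.1%. Ctrl+OGD vs Ctrl and PGC-1α vs Ctrl share the Ctrl library, so a value that is low in Ctrl enters both.

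**Figure D2:**
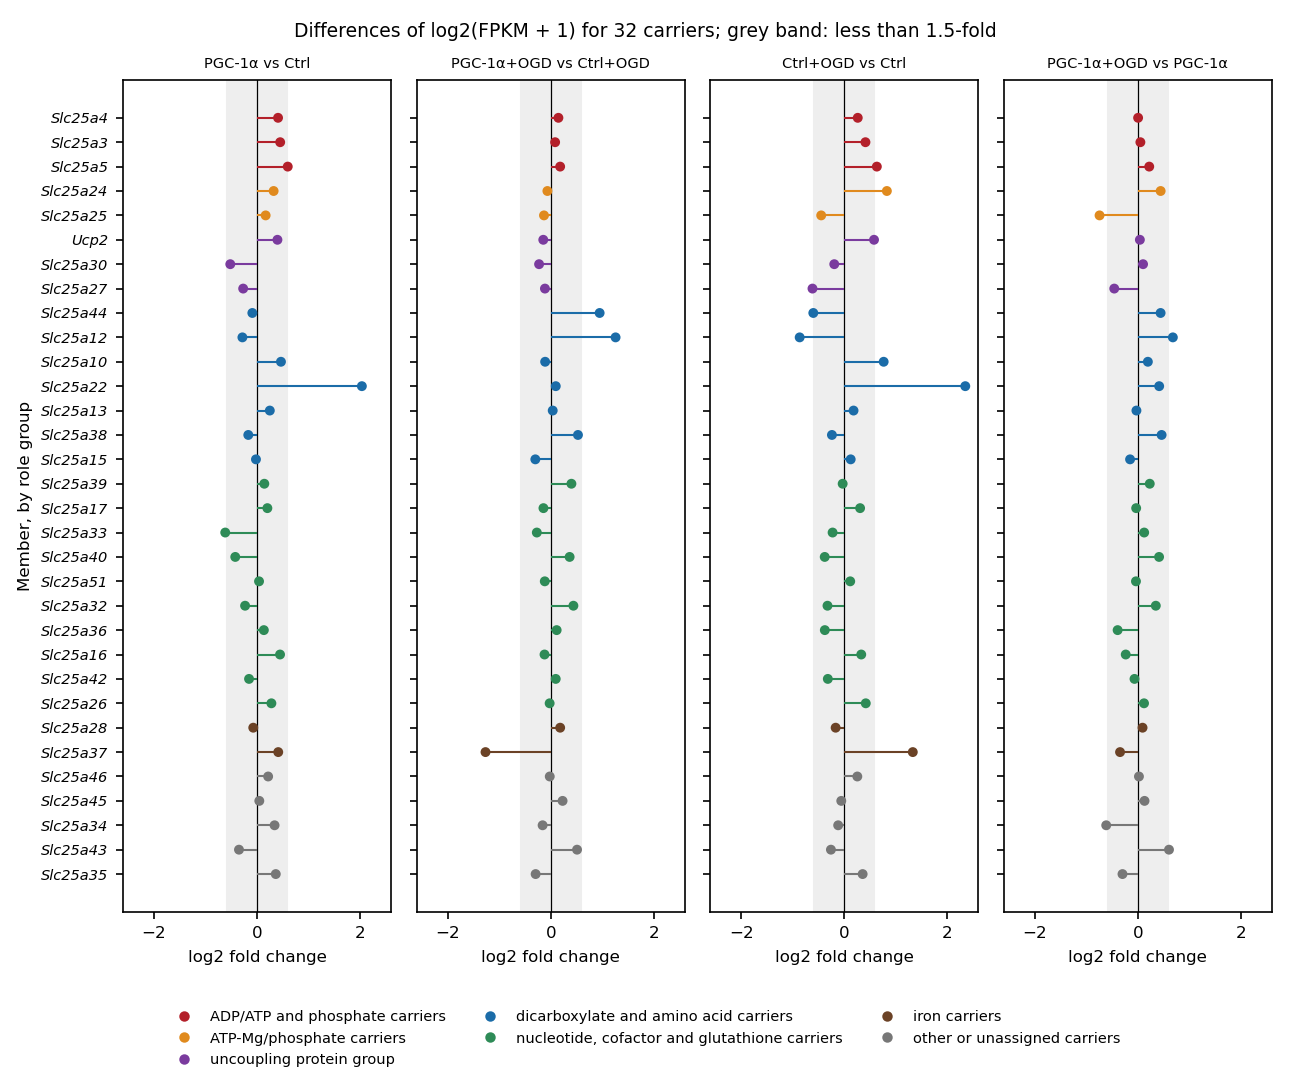
Log2 fold changes of 32 of the 33 compared members in the 4 comparisons, ordered by role group and colored by it; the grey band holds differences of less than 1.5-fold. Slc25a22 lies farthest to the right in both comparisons with Ctrl (2.03 and 2.35), and Slc25a12 and Slc25a37 lie on opposite sides under OGD (1.26 and -1.26 in the second panel from the left).

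The 3 compared carriers that feed ATP synthase were all lowest in Ctrl. Slc25a4, the ADP/ATP carrier of heart, muscle and brain, had 157, 208, 188 and 208 FPKM. Slc25a5, the ADP/ATP carrier of proliferating cells, a plus-strand gene at chrX:36795651-36798807, had 99.9, 151, 155 and 176 FPKM. For Slc25a3, the phosphate carrier, the values were 114, 156, 152 and 162 FPKM. In each of these genes Ctrl was below the other 3 libraries. The log2 fold changes in PGC-1α vs Ctrl were 0.40 for Slc25a4, 0.45 for Slc25a3 and 0.59 for Slc25a5, the last just past 1.5-fold. With OGD, PGC-1α differed from control by 0.15, 0.08 and 0.18 for the same genes. OGD in control cells gave 0.26, 0.41 and 0.63, and OGD in PGC-1α cells 0.00, 0.05 and 0.22. The 3 genes made up 48.9% of the summed FPKM of the members in Ctrl and between 54.4% and 55.9% in the other libraries.

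Exon 3A was a small part of Slc25a3 in every library. The transcript with exon 3A had 3.06, 4.18, 4.76 and 5.72 FPKM, which is 2.67%, 2.68%, 3.13% and 3.54% of the gene. The 2 transcripts with exon 3B held the rest in every library, 111, 152, 147 and 156 FPKM. Within them the balance was less even, since Slc25a3-203 had 3.12, 15.1, 8.79 and 10.7 FPKM, or 2.73%, 9.67%, 5.77% and 6.64% of the gene.

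The calcium-regulated ATP-Mg/phosphate carriers load mitochondria with adenine nucleotides, and 2 of 4 listed had values. Slc25a24 had 26.6, 33.4, 47.9 and 45.7 FPKM. Both OGD libraries were thus above both libraries without OGD, with a log2 fold change of 0.82 in control cells, past 1.5-fold, and of 0.44 in PGC-1α cells. PGC-1α differed from control by 0.32 without OGD and by -0.06 with OGD. Slc25a25 showed the opposite order, with 5.63, 6.43, 3.86 and 3.44 FPKM. Its log2 fold changes after OGD were -0.45 in control cells and -0.74 in PGC-1α cells, the latter past 1.5-fold. The transcripts behind the Slc25a25 value also differed. Those with the 36-base exon shown above were at 0.00107, 0.00359, 0.00133 and 3.33 FPKM, the last being 96.7% of the gene in that library.

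Of the uncoupling protein group, 3 members were compared. With PGC-1α, 0 of them were past 1.5-fold, against 10.5% of all genes without OGD and 6.9% with OGD. Ucp2 had 11.1, 14.9, 17.1 and 15.3 FPKM, with Ctrl below the other 3. PGC-1α differed from control by 0.39 without OGD and by -0.14 with OGD. OGD gave 0.58 in control cells, just short of 1.5-fold on the log2(FPKM + 1) scale, while the ratio of the FPKM values was 1.53. Slc25a27, which encodes UCP4, was highest in Ctrl, with 5.24, 4.17, 3.07 and 2.76 FPKM. It was lower after OGD in control cells (-0.62, past 1.5-fold) and differed by -0.27 and -0.11 with PGC-1α, without and with OGD. Slc25a30, a carrier related to UCP5, had 10.3, 6.91, 8.92 and 7.48 FPKM, so that both PGC-1α libraries were below both controls, with log2 fold changes of -0.52 and -0.23 that did not reach 1.5-fold. Slc25a14, which encodes UCP5, had 2.40 FPKM in the PGC-1α+OGD library, from 2 transcripts, and was listed at 0 in the other 3, and its mean was too low for the comparison.

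Dicarboxylate and amino acid carriers held 4 of the 12 members with a 1.5-fold range over the libraries. Among all compared genes, 28.7% had such a range. Of 12 genes listed, 8 had values and 7 were compared. Slc25a22, which imports glutamate with protons, is a minus-strand gene at chr7:141429744-141437892 (GRCm38). It had 1.02, 7.26, 9.29 and 10.0 FPKM, so that Ctrl stood apart below the other 3. PGC-1α differed from control by 2.03 on the log2 scale without OGD and by 0.10 with OGD, and OGD gave 2.35 in control cells and 0.41 in overexpressing cells. Its 2 main transcripts outside Ctrl have the same coding exons and different first exons. Slc25a22-201 had 0.160, 4.51, 8.30 and 2.61 FPKM, and Slc25a22-203 was listed at 0 in Ctrl and at 2.08, 0.00458 and 6.93 FPKM in the others. A shorter transcript, Slc25a22-209, had 0.864, 0.670, 0.468 and 0.465 FPKM, and it held 84.4% of the low Ctrl value. The summed value of these libraries was therefore reached through different transcripts.

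Slc25a12, the aspartate/glutamate carrier of brain and muscle, is a minus-strand gene at chr2:71271063-71367749 and has 1 transcript in the table. Its values were 8.58, 6.85, 4.26 and 11.6 FPKM, with the lowest and the highest level both after OGD. The log2 fold change of PGC-1α against control was -0.29 without OGD and 1.26 with OGD. OGD gave -0.87 in control cells and 0.68 in PGC-1α cells, past 1.5-fold in opposite directions. Slc25a13, which does the same exchange in liver and other tissues, showed no such pattern, with 5.83, 7.09, 6.73 and 6.94 FPKM and log2 fold changes between -0.03 and 0.24. The listed split of Slc25a13 between a pair of transcripts, which differ outside the coding sequence, was not the same in all libraries. Slc25a13-201 had 0.0102, 6.31, 0.510 and 0.289 FPKM.

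Slc25a44, which imports branched-chain amino acids, is a minus-strand gene at chr3:88410498-88425139. It had an order like that of Slc25a12, with 10.8, 10.0, 6.76 and 13.97 FPKM. PGC-1α differed from control by -0.09 without OGD and by 0.95 with OGD, and OGD by -0.60 in control cells, just past 1.5-fold, and by 0.44 in PGC-1α cells. The transcripts Slc25a44-201 and Slc25a44-204 were both lowest in Ctrl+OGD (1.64 FPKM each) and highest in PGC-1α+OGD (5.63 and 6.95 FPKM), while Slc25a44-202 was highest in Ctrl+OGD (2.68 FPKM). The dicarboxylate carrier Slc25a10 had 4.97, 7.21, 9.12 and 8.39 FPKM, lowest in Ctrl. PGC-1α differed from control by 0.46 without OGD and by -0.11 with OGD, and OGD gave 0.76 in control cells and 0.19 in PGC-1α cells. Slc25a38, the glycine carrier needed for heme synthesis, had 5.61, 4.87, 4.60 and 7.07 FPKM, and the ornithine carrier Slc25a15 stayed between 2.90 and 3.80 FPKM. Slc25a29, a carrier of basic amino acids, had at most 0.991 FPKM.

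**Figure D3:**
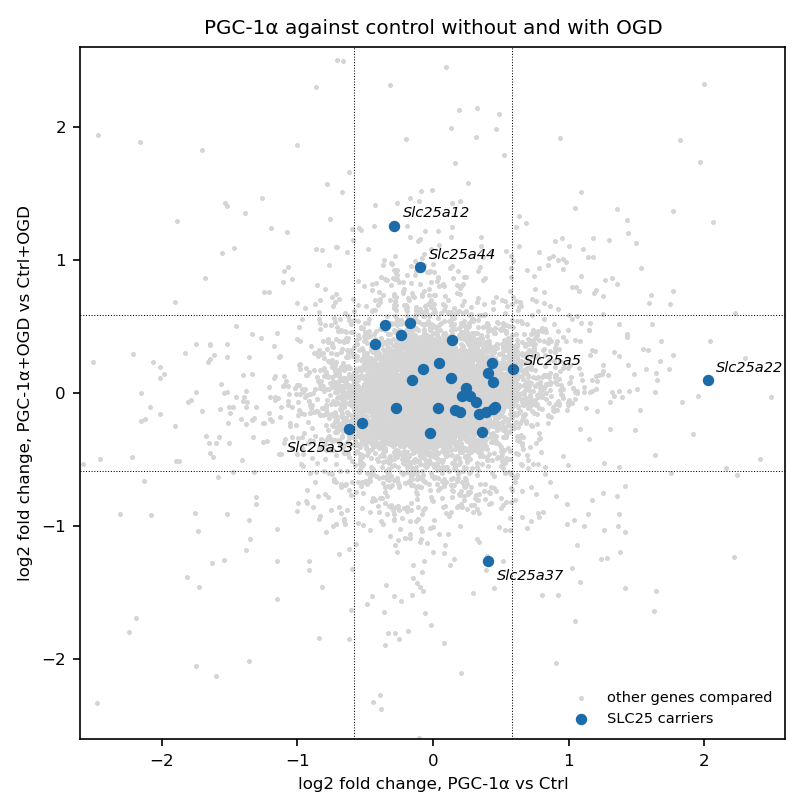
Log2 fold change of each gene with PGC-1α without OGD (x axis) and with OGD (y axis); blue points are the 33 carriers, grey points the other compared genes, and dotted lines mark 1.5-fold. Of the 10604 genes, 22 lie outside the axes. Slc25a22 is far to the right near 0 on the y axis. Slc25a12 and Slc25a44 at the top and Slc25a37 at the bottom are within 1.5-fold on the x axis (-0.29, -0.09 and 0.41).

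The 2 iron carriers behaved differently. Slc25a37, mitoferrin-1, which supplies iron for heme synthesis in erythroid cells, is a minus-strand gene at chr14:69241848-69285112 and has 1 transcript. It had 3.09, 4.43, 9.26 and 3.27 FPKM, so that Ctrl+OGD stood above the other 3. The log2 fold change was 1.33 after OGD in control cells and -0.35 in PGC-1α cells, and PGC-1α differed from control by 0.41 without OGD and by -1.26 with OGD. Slc25a28, mitoferrin-2, the form of most other tissues, was more abundant and nearly even, with 22.3, 21.1, 19.8 and 22.6 FPKM.

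Carriers of nucleotides, cofactors and glutathione mostly differed by less than 1.5-fold. All 11 with values were compared, and in all 4 comparisons 1 call was made, that of Slc25a33 in PGC-1α vs Ctrl. Among all genes, 10.5% were past 1.5-fold in PGC-1α vs Ctrl and 6.9% in PGC-1α+OGD vs Ctrl+OGD. The share was 13.9% in Ctrl+OGD vs Ctrl and 9.03% in PGC-1α+OGD vs PGC-1α. Slc25a33, a pyrimidine nucleotide carrier, had 23.8, 15.1, 20.2 and 16.6 FPKM. Both PGC-1α libraries were below both controls, by -0.62 and -0.27 on the log2 scale. The other pyrimidine nucleotide carrier, Slc25a36, had 11.8, 13.0, 8.88 and 9.70 FPKM, lower in both OGD libraries. Slc25a39, a glutathione carrier and the fourth most abundant member, had 105, 116, 103 and 136 FPKM. Its close relative Slc25a40 had 21.3, 15.6, 16.1 and 21.1 FPKM, and neither was past 1.5-fold. The peroxisomal carrier Slc25a17 had 23.9, 27.5, 29.7 and 26.9 FPKM, with log2 fold changes between -0.14 and 0.31. The NAD carrier Slc25a51 lay between 12.9 and 14.1 FPKM, and the flavin and folate carrier Slc25a32 between 10.9 and 15.2 FPKM. The carriers of coenzyme A, Slc25a16 and Slc25a42, and that of S-adenosylmethionine, Slc25a26, were low, between 1.07 and 4.03 FPKM.

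Of the remaining carriers, Slc25a46, an outer membrane protein that acts in mitochondrial dynamics, had 12.9, 15.1, 15.6 and 15.3 FPKM, lowest in Ctrl, and Slc25a45 lay between 13.4 and 15.9 FPKM. Slc25a43 had 2.68, 1.88, 2.08 and 3.38 FPKM and was higher after OGD in PGC-1α cells (0.60). Slc25a34 had 2.68, 3.65, 2.39 and 2.04 FPKM and was lower in that comparison (-0.61). Slc25a35 stayed between 1.01 and 1.58 FPKM, and Slc25a47, a liver carrier, was listed at 0 in PGC-1α and Ctrl+OGD, and at 1.20 and 0.558 FPKM in the other 2.

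For Slc25a13, Slc25a36 and Slc25a39 the summed level differed by less than 1.5-fold, while the listed split between transcripts varied. The count that follows was chosen after the values were seen and also takes in transcripts of carriers without this pattern, such as Slc25a14. The 36 members had 74 transcripts in the table, and 17 members had 2 or more. Of the 74, 10 transcripts (13.5%), in 8 members, were at 0.5 FPKM or more in 1 library and under 0.05 FPKM in the other 3, against 4.86% of all 25822 matched transcripts. In PGC-1α there were 3, among them Slc25a39-202, which lacks the 24 bases shown above (16.1 FPKM), and Slc25a36-201, which has a shorter coding sequence (9.02 FPKM), both listed at 0 in the other libraries. Transcripts with the 24 bases held 97.7%, 81.0%, 97.3% and 97.0% of Slc25a39. In PGC-1α the rest was Slc25a39-202 (13.9%) and Slc25a39-205 (5.05%). In the other libraries it was Slc25a39-205 alone, a transcript that does not reach the position of these bases. The main Slc25a36 transcript, Slc25a36-202, was at 3.46 FPKM in PGC-1α and between 8.87 and 10.6 FPKM elsewhere. In PGC-1α+OGD the transcripts seen in that library alone numbered 5, a pair each of Slc25a14 and Slc25a25 and 1 of Ucp2 (1.24 FPKM), in Ctrl+OGD 2, and in Ctrl 0. How the reads were divided among transcripts is not given in the sources used here, and without replicates a switch between transcripts and an unstable estimate cannot be told apart.

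**Figure D4:**
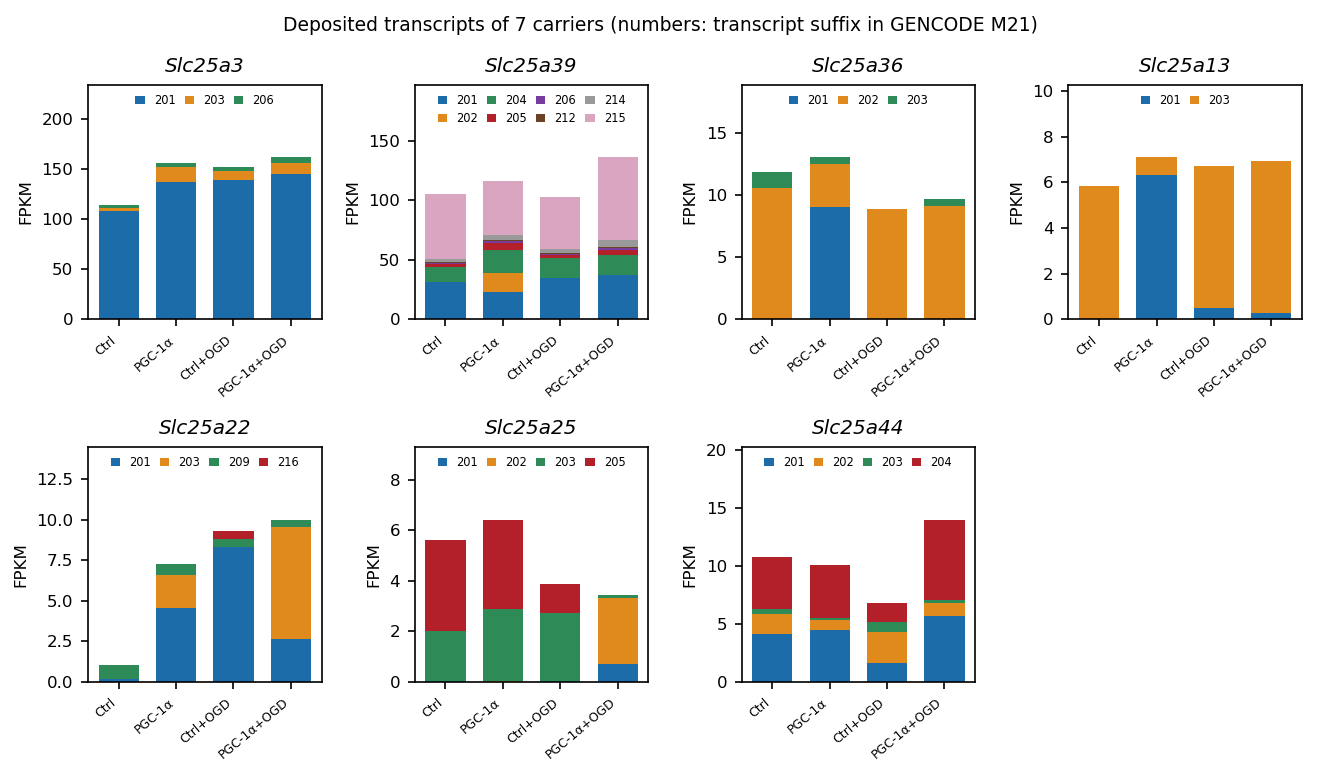
FPKM of each deposited transcript of 7 carriers in the 4 libraries, stacked so that the height of a bar is the level of the gene; colors are transcript suffixes. Slc25a3-206, which holds exon 3A, is a small part of Slc25a3 in every library, while Slc25a3-203 is 2.73% of the gene in Ctrl and 9.67% in PGC-1α. Slc25a39, Slc25a36 and Slc25a13 differ in PGC-1α alone, and Slc25a25 differs in PGC-1α+OGD.

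Other transport genes of mitochondria were set beside the carriers. Of 5 carrier genes outside the rule with values (Slc25a1, Slc25a11, Slc25a20, Mtch1 and Mtch2), 0 were past 1.5-fold with PGC-1α either without or with OGD. By the same criterion 10.5% and 6.9% of all genes were. The medians of the 5 genes were 0.35 and 0.20, beside 0.16 and 0.04 for the members and -0.03 and -0.01 for all genes. Mtch1 was the 1 gene higher in PGC-1α+OGD vs PGC-1α (0.78), against 3.82%. Of 20 other inner membrane transporters, 3 were higher (against 4.91% of all genes) and 0 lower (5.63%) in PGC-1α vs Ctrl, namely Mpc1, a subunit of the pyruvate carrier (11.8 and 18.7 FPKM, a log2 fold change of 0.62), Letm1, a cation exchanger (12.9 and 20.5 FPKM, 0.64), and the zinc transporter Slc30a9 (17.9 and 28.4 FPKM, 0.63). All 3 were also higher in Ctrl+OGD than in Ctrl (0.68, 0.73 and 0.68), against 6.2% of all genes, while Micu3, a regulator of the calcium uniporter (-1.06), and the sodium/calcium exchanger Slc8b1 (-0.59) were lower, against 7.71%. Micu3 was the 1 gene higher in PGC-1α+OGD vs Ctrl+OGD (0.73), against 3.08%, and in PGC-1α+OGD vs PGC-1α 0 were past 1.5-fold, against 9.03% in either direction. The outer membrane channels Vdac1, Vdac2 and Vdac3 differed by 0.22, 0.19 and 0.23 in PGC-1α vs Ctrl and by 0.08, 0.13 and -0.05 in the comparison with OGD. Of 16 genes of the import route that carrier proteins take into the inner membrane, 2 were higher in PGC-1α vs Ctrl (Tomm5, 1.03, and Tomm40, 0.60), against 4.91% of all genes. In Ctrl+OGD vs Ctrl 4 were higher (Tomm5, Tomm40, Timm8a1 and Tomm22), against 6.2%. In the comparisons of PGC-1α+OGD with Ctrl+OGD and with PGC-1α 0 were higher, against 3.08% and 3.82%, and 0 were lower in any of the 4.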

How the data were processed

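RNA-Seq of 4 HT-22 libraries, 1 per group, was analysed. Per the labels, HISAT2 2.1.0 and GRCm38 were used by the authors for alignment of the reads, which were paired-end. The deposited table gives 1 value per Ensembl transcript and was taken as FPKM, because values are never negative and column totals differ. The program and annotation behind them are not given in the sources used here, and every transcript reached 0.5 FPKM in at least 1 library. Read depth is unknown, so no counting error can be given.

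Of 25889 transcripts, 25822 were matched to GENCODE M21 by identifier without version and summed per gene symbol. Genes averaging 1 FPKM or more were compared as differences of log2(FPKM + 1), which understates changes of low genes, with calls at 1.5-fold, the fold criterion of the study's methods without its p value. With 1 library per group a single difference has no test, and an additive fit of PGC-1α and OGD over the 4 libraries, which would leave 1 residual degree of freedom, was not made. As alternatives, the pseudocount was set to 0.1 or 0.01, the filter was dropped or raised to a mean of 5 FPKM, values were scaled by median ratio or upper quartile, genes were represented by the highest transcript or by protein-coding transcripts only, and calls were made at 2-fold. Members and lists were chosen with earlier results of these data known. Full values were given for members past 1.5-fold in any comparison, averaging 20 FPKM or more, of the uncoupling group, or highest in a role group; the others are given with their range or their 4 values. The count of transcripts seen in 1 library and the naming of the transcripts behind it were chosen after the values were seen. Values of 1 member enter the counts, medians and sums but are not reported here. A planned comparison of protein sequences was not made here. Reads shared with paralogs or pseudogenes, such as those of Slc25a5, could not be separated. By GENCODE M21, 34 of the 36 members share no exon with another gene on the same strand. Scripts in Python 3.11.15 with Biopython 1.88, matplotlib 3.10.9, numpy 2.4.6 and pandas 2.3.3 were tested on simulated data.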

Additional observations from a re-analysis of the deposited data

Results flagged for a closer look

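Slc25a12 was past 1.5-fold in opposite directions after OGD in the control and the overexpressing cells, with log2 fold changes of -0.87 and 0.68, a difference that was not tested. Slc25a14, which was too low to be compared, had 2.40 FPKM in PGC-1α+OGD and was listed at 0 in both control libraries and in PGC-1α.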

How the results depend on the processing

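No paired analysis was possible because each group has 1 library. Each count of members below is followed by the share of all genes called under the same setting. For members called higher, the count in PGC-1α vs Ctrl was 1 at 2-fold (1.47%). In PGC-1α+OGD vs Ctrl+OGD it was 4 with a pseudocount of 0.1 (4.23%) or 0.01 (4.41%) or with no filter (3.43%), and 1 at 2-fold (1.02%). In Ctrl+OGD vs Ctrl it was 8 with a pseudocount of 0.1 (7.84%) or 0.01 (8.05%) and 2 at 2-fold (1.49%). In PGC-1α+OGD vs PGC-1α it was 4 with no filter (3.98%), 1 with a mean of at least 5 FPKM (3.2%), 6 with the highest transcript (7.46%) and 0 at 2-fold (1.19%). For members called lower, the count in PGC-1α vs Ctrl was 2 with no filter (5.84%), 3 with the highest transcript (9.3%) and 0 at 2-fold (1.53%), and in PGC-1α+OGD vs Ctrl+OGD it was 4 with the highest transcript (7.23%). In Ctrl+OGD vs Ctrl it was 0 at 2-fold (1.94%), and in PGC-1α+OGD vs PGC-1α it was 0 with a mean of at least 5 FPKM (3.74%) and at 2-fold (1.67%). The median of the members in PGC-1α vs Ctrl was -0.0075 with the highest transcript, below 0. The other 84 of 104 recomputed counts and medians stayed within 1.5 times the count or 0.1 of the median. Of 624 recomputed log2 fold changes of 20 named members, 604 kept their direction and side of 1.5-fold, and none changed direction in a comparison in which the member was called. Many of these values could not differ, since filters leave a gene's own value unchanged and all member transcripts are protein-coding. For members with 1 transcript the highest transcript is also the sum, and a pseudocount cannot change a direction. The 604 thus includes values fixed in advance, as do the 84 for protein-coding transcripts. The call of Slc25a44 in Ctrl+OGD vs Ctrl was lost with median-ratio scaling (-0.58). In the same comparison Ucp2, which was not called, passed 1.5-fold with a pseudocount of 0.1 (0.61) or 0.01 (0.62). It also did so with median-ratio scaling (0.60) and with the highest transcript (0.64). Some values that were not called did cross 0, among them Slc25a22 with the highest transcript, at -1.37 in PGC-1α+OGD vs Ctrl+OGD and at -0.61 in PGC-1α+OGD vs PGC-1α. Among 16 compared members with 2 or more transcripts, the sum and the highest transcript differed by over 0.58 in at least 1 comparison for 7.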

Other observations

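In Ctrl, 15 of the 33 compared members had their lowest level and 5 their highest. Among compared genes, 28.2% were lowest in Ctrl, leaving out genes tied for the lowest level, and 34.5% were highest there. In PGC-1α+OGD 12 members had their highest level, where 18.9% of all compared genes did.

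PGC-1α acts with estrogen-related receptors and with nuclear respiratory factor 1, whose binding motifs were searched in the promoters of RefSeq on GRCm38.p6, from 250 bases before to 50 bases after each gene start, on both strands. Promoters were matched for 27 of the 36 members. The motif TNAAGGTCA of estrogen-related receptors was in 0 of these 27 members and in 1.43% of 27025 genes, and the palindromic consensus of nuclear respiratory factor 1 in 0 of 27 and in 1.07% of genes, so that exact matches were rare in windows of this length.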
